A study of Mus musculus with 16 samples.

Results

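The genes described here are 9 major urinary protein genes, Mup1, Mup7, Mup8, Mup9, Mup11, Mup15, Mup16, Mup17 and Mup18, in the liver of young and old mice. They were chosen by symbol, without use of their measured values, and all 9 were found among the 24010 entries of the deposited expression table. The mice were C57BL/6 animals of 5 months (young) or 23 months (old). Every mouse received a plasmid by hydrodynamic tail vein (HTV) injection, a rapid injection of a large volume that carries DNA into liver cells. The plasmid was an enhanced episomal vector (EEV) that coded for human MANF (mesencephalic astrocyte-derived neurotrophic factor, a protein of the endoplasmic reticulum that is also secreted) or an empty control plasmid. Control mice were thus injected mice too, and no uninjected animal is part of these comparisons. Livers were analysed 5 weeks after the injection by RNA sequencing, with 1 library per mouse and 4 mice in every group, the groups being young and old mice with the control or the MANF plasmid. The labels used here do not state the sex. The Y-linked gene Ddx3y had between 4.02 and 13.6 RPKM (reads per kilobase of gene, relative to library size). The X-linked gene Xist had between 0 and 0.00755 RPKM.

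Major urinary proteins are small lipocalins, barrel-shaped proteins that carry hydrophobic molecules. The hepatocyte secretes them into the blood, the kidney passes them into the urine, and there they bind volatile pheromones and release them slowly from scent marks. In mouse liver their transcription depends on pulses of growth hormone, which act through the receptor Ghr, the kinase Jak2 and the transcription factor Stat5b, and it is higher in males than in females. The genes lie side by side in a large cluster. Those in its centre are nearly identical copies of each other, and those at its edges are more divergent.

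In GENCODE M21 (build GRCm38) the 9 genes are protein coding, lie on the minus strand of chromosome 4 and span 1608 kb, within a cluster of 22 Mup genes over 2194 kb. Mup7 was at chr4:60066469-60070475, Mup8 at chr4:60218621-60222599, Mup9 at chr4:60418046-60421952, Mup1 at chr4:60498012-60501960 and Mup11 at chr4:60658466-60662411. Further along lay Mup15 at chr4:61435790-61439743, Mup16 at chr4:61515592-61519531, Mup17 at chr4:61591929-61595871 and Mup18 at chr4:61670177-61674136. Other Mup genes lie between them, among them Mup2, Mup10, Mup12, Mup13 and Mup14.

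How alike the transcripts are decides how far their reads can be told apart, so a stretch of 60 coding bases is given here for 4 of the genes, read 5′ to 3′ from the GENCODE transcripts. It covers coding bases 98 to 157, counted from the first base of the start codon, and holds 4 of the 11 positions at which the last 500 coding bases varied among the 9 genes. Capitals mark bases that differ from those of the majority of the 9. The Mup15 line was shared letter for letter by Mup1, Mup8, Mup9, Mup11 and Mup18 (in Mup11 and Mup18 at coding bases 101 to 160).
Mup15: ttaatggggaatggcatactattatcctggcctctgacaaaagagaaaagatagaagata
Mup7: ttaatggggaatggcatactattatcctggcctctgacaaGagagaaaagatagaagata
Mup16: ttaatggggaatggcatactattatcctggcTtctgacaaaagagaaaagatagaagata
Mup17: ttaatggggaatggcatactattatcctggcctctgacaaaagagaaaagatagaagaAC

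Over the last 500 coding bases the 36 pairs of genes differed at 0 to 7 bases, with a median of 4, which is an identity of 98.6 to 100%. The pair with no difference was Mup9 and Mup18. Every 50-base window of the Mup15 transcript occurred in another gene, whereas 21.9% of the windows of Mup17 occurred in no other gene. The remaining 7 genes had between 4.54% (Mup1) and 13.1% (Mup8) of 50-base windows to themselves. With windows of 100 bases the share was 2.66% for Mup15, 11.7% for Mup1 and 40.6% for Mup17. All genes that shared windows were Mup genes or Mup pseudogenes. How reads that align to several genes were counted is not given in the sources used here, so the value of any 1 of the 9 is uncertain with respect to its neighbours, and that of Mup15 the most. Their sum is uncertain too, since shared reads may have been left out or counted for Mup genes outside the 9.

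RefSeq (GRCm38.p6) gave a promoter entry for 6 of the 9 genes, Mup7, Mup9, Mup11, Mup15, Mup17 and Mup18. The 250 bases before the listed start are shown for 3 genes that all fell with age: Mup15 at chr4:61439705-61439954, Mup17 at chr4:61595833-61596082 and Mup18 at chr4:61674095-61674344, each on the minus strand and read 5′ to 3′. Capitals mark matches to TATATAA, the letters of a TATA box, and to ATCAAT, letters of the core that Cux and Onecut factors recognise.
Mup15: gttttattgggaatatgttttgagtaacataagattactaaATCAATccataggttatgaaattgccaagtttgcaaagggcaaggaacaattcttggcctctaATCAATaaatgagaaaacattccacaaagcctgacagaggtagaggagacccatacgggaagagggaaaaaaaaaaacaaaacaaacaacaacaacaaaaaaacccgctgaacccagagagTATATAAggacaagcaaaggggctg
Mup17: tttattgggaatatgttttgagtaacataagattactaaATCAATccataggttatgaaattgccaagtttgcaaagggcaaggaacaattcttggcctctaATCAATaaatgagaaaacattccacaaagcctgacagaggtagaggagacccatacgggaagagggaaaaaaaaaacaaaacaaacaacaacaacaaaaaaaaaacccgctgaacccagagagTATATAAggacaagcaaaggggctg
Mup18: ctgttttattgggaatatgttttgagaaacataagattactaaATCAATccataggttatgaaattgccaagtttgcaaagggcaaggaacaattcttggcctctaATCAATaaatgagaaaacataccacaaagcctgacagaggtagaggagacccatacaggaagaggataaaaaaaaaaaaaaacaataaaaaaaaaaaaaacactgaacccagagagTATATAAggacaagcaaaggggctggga

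Motifs were searched on both strands over all 300 bases of each entry, 250 before and 50 after the listed start. ATCAAT was found 2 times in each of the 6 entries, whereas 7.54% of the 32817 mouse promoters in the table held it at all and 0.695% held it 2 or more times. TATATAA was found in 5 of the 6 (all but Mup7) and in 3.25% of all promoters. In Mup11 it lay at -2 to 4, across the listed start. In Mup7 the ATCAAT matches began at -82 and -19 from the listed start, against -209 and -146 in Mup15. The Mup7 entry thus ended before the stretch that held TATATAA in the others, and whether that gene has these letters cannot be read from it. TTCNNNGAA, the letters to which Stat5 binds, was found in none of the 6 and in 8.29% of all promoters, which says only that these letters are not within these windows. The motifs do not overlap each other. Over 220 bases the Mup15 and Mup17 promoters differed by 4 edits (substitutions, insertions or deletions), and Mup15 and Mup18 by 14. Pairs of the 5 entries other than Mup7 differed by 3 to 17 edits. The entries are thus near copies, and the matches they share are not separate observations to set against the shares of all promoters. These are matches of letters in reference sequence, and no binding was measured.

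The values are RPKM as the authors deposited them, and are therefore levels per length. Whole reads could be recovered from the steps between RPKM values: each library's values had been divided by 18.31 to 26.12 M reads (M, megareads), and 11.85 to 16.58 M reads lay in listed genes. Each of the 9 genes rested on 7 to 36243 reads in a library. The labelled tissue was checked by 10 hepatocyte markers, all present, with Alb at 20100 to 34300 RPKM. Young MANF replicate 3 and old control replicate 4 stood furthest from their groups over all tested genes (root mean square log2 deviation 0.354 and 0.415, against 0.181 to 0.277 in the others), and results that rest on them are given with and without them.

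Together the 9 genes were abundant in young livers and low in old ones. Of the reads in listed genes, their share was 0.346 to 0.664% in young control and 0.211 to 0.539% in young MANF libraries. In old libraries it was 0.0214 to 0.151% with the control plasmid and 0.00247 to 0.0474% with MANF. Their summed level was 3068 ± 743 RPKM with the control plasmid and 2398 ± 867 with MANF in young mice, and 452 ± 341 and 114 ± 115 RPKM in old mice (mean ± SD, n = 4). All 8 young libraries lay above all 8 old ones, the lowest young library being at 1291 RPKM and the highest old one at 886. In old MANF mice the sum in replicate 2 was 15.4 RPKM and in replicate 3 it was 280 RPKM, so the spread within that group was as large as its mean.

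**Figure D1:**
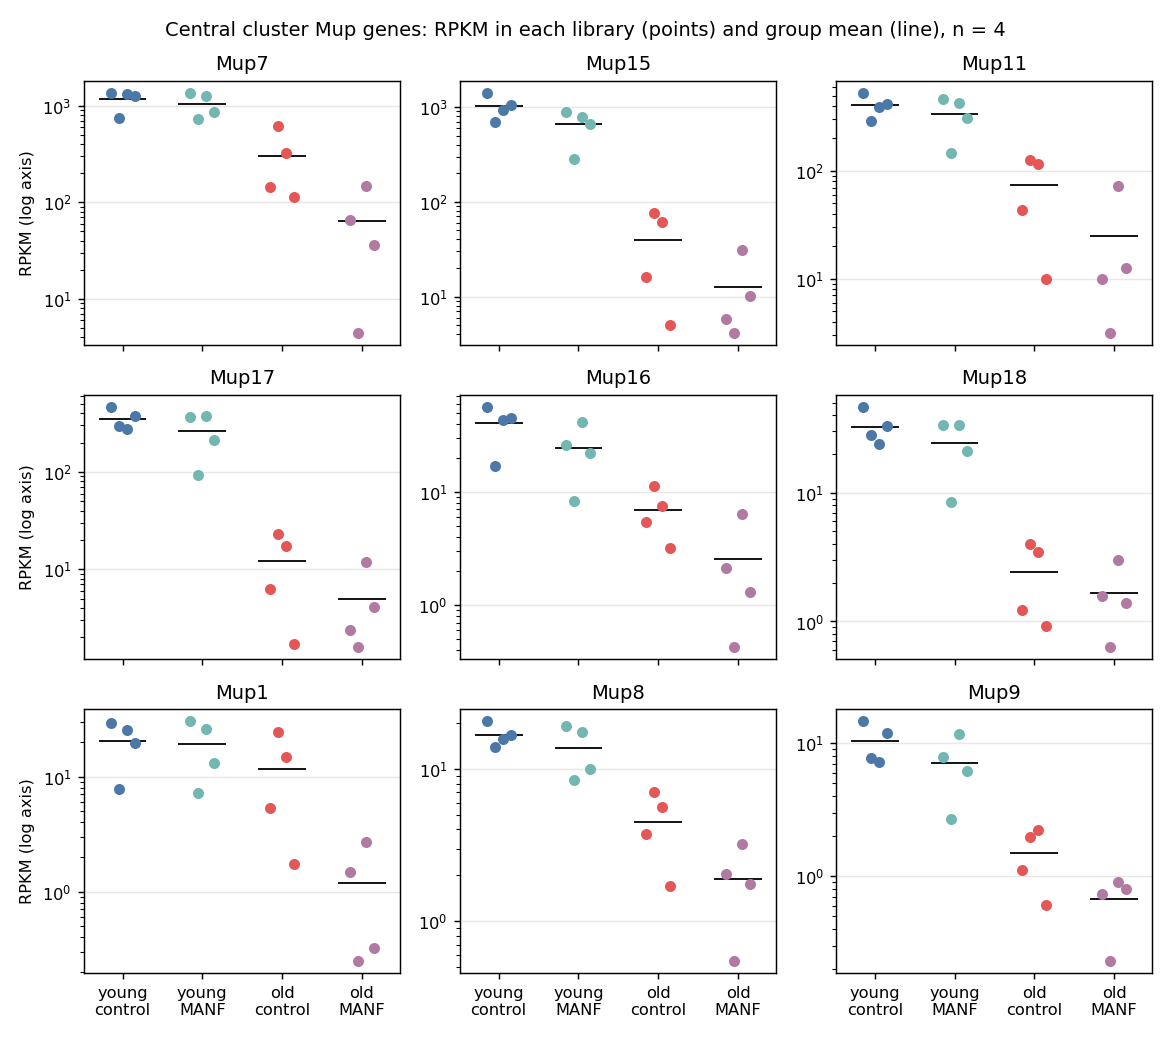
RPKM (log axis) of each of the 9 genes in every library, 1 panel per gene, with points for the 4 mice of each group and a line at the group mean. Young and old points are separate for most genes, Mup15 and Mup17 show the widest gap, and Mup1 in old control mice (1.74 to 24.7 RPKM) reaches into the young range.

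Mup15 and Mup17 showed the widest difference between young and old. For Mup15 the young control libraries read 1406, 697, 927 and 1053 RPKM (replicates 1 to 4) and the old control libraries 16.1, 76.0, 60.9 and 5.03. In the MANF groups it was 891, 280, 795 and 665 RPKM in young mice and 5.85, 4.13, 30.7 and 10.1 in old mice. No old library reached the lowest young one. Mup17 was at 461, 298, 274 and 375 RPKM in young control mice and at 6.28, 22.9, 17.5 and 1.70 in old control mice. With the MANF plasmid, Mup17 was at 364, 92.3, 379 and 215 RPKM in young mice and at 2.38, 1.58, 11.9 and 4.07 in old mice. Here too the young and the old libraries did not overlap.

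Mup7 had the highest mean of the 9 in every group. Its levels were 1353, 754, 1319 and 1252 RPKM in young mice with the control plasmid and 1343, 737, 1254 and 871 with MANF. In old mice they were 145, 611, 327 and 112 RPKM with the control plasmid and 66.4, 4.45, 148 and 36.0 with MANF. Old control replicate 2 came within reach of the young range, and old MANF replicate 2 lay far below its group. Mup11 was at 528, 287, 387 and 417 RPKM in young control mice and 465, 147, 429 and 310 in young MANF mice. In old mice Mup11 was at 43.4, 127, 116 and 9.91 RPKM with the control plasmid and at 9.99, 3.14, 72.8 and 12.6 with MANF. As for Mup7, all old values lay below all young ones, although old control replicate 2 (127 RPKM) was near young MANF replicate 2 (147 RPKM).

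The other 5 genes were at lower levels. Mup1, the gene for which a role in glucose and energy metabolism has been described in mice, was at 29.0, 7.84, 25.2 and 19.7 RPKM in young control and 30.1, 7.21, 26.1 and 13.1 RPKM in young MANF mice. In old mice Mup1 was at 5.31, 24.7, 14.8 and 1.74 RPKM with the control plasmid and at 1.48, 0.247, 2.69 and 0.323 with MANF. It was the only 1 of the 9 whose old control libraries overlapped with the young control libraries. Mup18 was at 46.0, 28.0, 23.8 and 32.7 RPKM in young mice with the control plasmid and 33.7, 8.39, 33.7 and 21.1 with MANF, and in old mice at 1.22, 4.02, 3.43 and 0.922 with the control plasmid and 1.58, 0.631, 2.99 and 1.40 with MANF. Its old control and old MANF values were interleaved, and both lay below every young value.

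Mup16 was at 56.1, 17.1, 43.6 and 45.2 RPKM in young mice with the control plasmid and 26.1, 8.32, 42.0 and 22.3 with MANF, and in old mice at 5.43, 11.2, 7.55 and 3.22 with the control plasmid and 2.12, 0.424, 6.42 and 1.30 with MANF. Its young MANF replicate 2 fell below the highest old control library. Mup8 ranged from 13.9 to 20.4 RPKM (control plasmid) and 8.43 to 19.2 (MANF) in young mice, and from 1.69 to 7.01 and 0.546 to 3.21 in old mice. Mup9 had the lowest mean of the 9 in every group, at 7.27 to 14.6, 2.70 to 11.8, 0.602 to 2.22 and 0.228 to 0.911 RPKM in the same order. Its reads in old MANF mice numbered 7 to 26 in a library, which limits it through counting error. All 9 genes passed the filter on low values (at least 0.5 RPKM in at least 4 libraries), and 6 of the 9 were at or above 0.5 RPKM in all 8 old libraries as well.

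The order of the levels differed between young and old mice. By group means, young control mice had Mup7 (1170 ± 280 RPKM) and Mup15 (1021 ± 296), then Mup11 (405 ± 98.8) and Mup17 (352 ± 84.7), followed by Mup16 (40.5 ± 16.6), Mup18 (32.6 ± 9.66), Mup1 (20.4 ± 9.23), Mup8 (16.6 ± 2.75) and Mup9 (10.4 ± 3.48). Within these young control mice Mup7 was not above Mup15 in every library, nor Mup11 above Mup17, nor Mup16 above Mup18, Mup18 above Mup1 or Mup1 above Mup8. The steps from Mup15 to Mup11, from Mup17 to Mup16 and from Mup8 to Mup9 were present in every library. In old control mice the order was Mup7 (299 ± 228 RPKM), Mup11 (74.3 ± 56.8), Mup15 (39.5 ± 34.3), Mup17 (12.1 ± 9.80), Mup1 (11.6 ± 10.3), Mup16 (6.86 ± 3.41), Mup8 (4.50 ± 2.30), Mup18 (2.4 ± 1.56) and Mup9 (1.48 ± 0.754). Mup11 lay above Mup15 in each old control library, whereas it lay below Mup15 in each young control library. The neighbours Mup17 and Mup1, and Mup1 and Mup16, were not in the same order in every old control library.

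The composition of the sum differed as well. Mup15 made up 33.1 ± 2.16% of the summed RPKM of the 9 genes in young mice with the control plasmid and 26.9 ± 3.96% with MANF, and 7.57 ± 3.07% and 14.7 ± 8.78% in old mice (mean ± SD of 4 libraries). Mup17 made up 11.7 ± 2.07%, 10.3 ± 2.38%, 2.43 ± 0.828% and 5.77 ± 3.32% in the same order. Mup7 made up 38.2 ± 4.05% in young control and 68.4 ± 9.92% in old control mice, whose ranges (34.6 to 43.6% and 58.9 to 81.9%) did not overlap. The share of Mup11 was 13.2 ± 0.388% in young control and 15.4 ± 6.11% in old control mice, with overlapping ranges. In old MANF mice the share of Mup7 ranged from 29.0% in replicate 2 to 71.7% in replicate 1. These shares are given as descriptions with no test, and reads of 1 gene that were counted for another would move them.

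**Figure D2:**
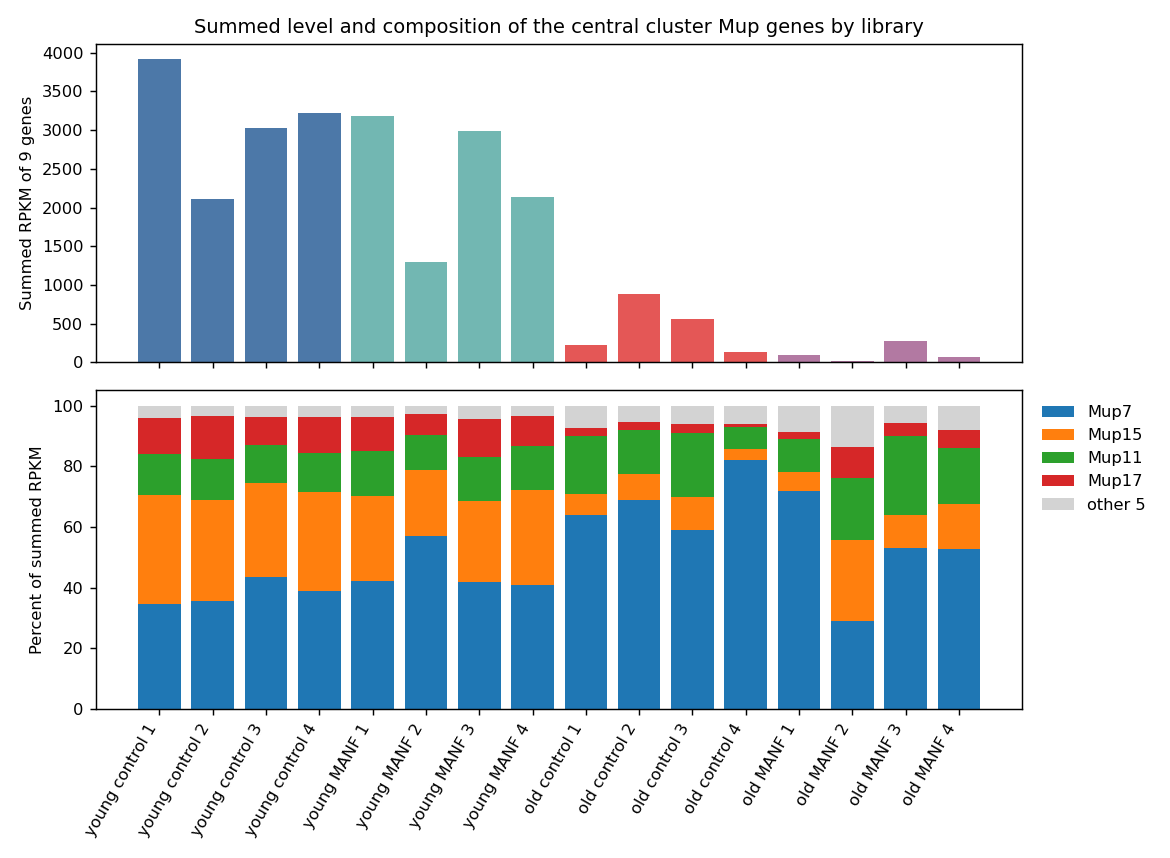
Summed RPKM of the 9 genes in each of the 16 libraries (upper panel, bars from 0) and the percent of that sum taken by Mup7, Mup15, Mup11, Mup17 and the other 5 genes together (lower panel). The sums are 1291 to 3915 RPKM in young libraries and 15.4 to 886 in old ones, and the parts of Mup15 and Mup17 are smaller in old control libraries than in young control libraries.

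The comparison of old with young control mice asks how age changed these genes where no MANF was given. Differences were tested with limma on log2(RPKM + 0.5) over 10677 genes in all 16 libraries, and a gene was called at a Benjamini-Hochberg adjusted p below 0.05 (two-sided). This scale understates the change of genes near 0.5 RPKM. Of the 9 genes, 6 were called lower in old control mice and 0 higher, against 0.347% of all tested genes called lower and 0.899% called higher. Their median log2 difference was -2.49, and that of all tested genes was 0.054. The groups did not overlap, with old below young, for 8 of the 9 genes, and the same held for 2.34% of all tested genes. All 9 log2 differences were below 0, as were 37.8% of all tested genes.

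Mup17 fell by 5.28 on the log2 scale (standard error 0.67, limma adjusted p = 0.00147), its mean RPKM being 29.1 times as high in young as in old control mice. Mup15 fell by 5.27 (standard error 0.72, limma adjusted p = 0.00214) and had a ratio of means of 25.8. Mup18 fell by 3.65 (standard error 0.46, limma adjusted p = 0.00147), with a ratio of 13.6. Mup9 fell by 2.49 (limma adjusted p = 0.00444), Mup16 fell by 2.48 (limma adjusted p = 0.0496) and Mup8 fell by 1.90 (limma adjusted p = 0.0309). The 3 genes that were not called were Mup11 at -2.95 (standard error 0.81, limma adjusted p = 0.088), Mup7 at -2.25 (0.76, adjusted p = 0.169) and Mup1 at -1.17 (0.69, adjusted p = 0.475). Their standard errors were among the largest of the 9, and Mup7 and Mup11 had larger differences than Mup8, which was called.

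Calls of 2 genes in this comparison were marginal. Mup8 was no longer called without any 1 of the 4 young control libraries, nor without old control replicate 1, 3 or 4, with adjusted p up to 0.0985. For Mup16 the call was lost without young control replicate 1, 3 or 4, young MANF replicate 1 or 4, old control replicate 1, 3 or 4, or old MANF replicate 1 or 4, with adjusted p up to 0.158. Mup7 was called without old MANF replicate 2 (adjusted p = 0.036) and Mup11 without old MANF replicate 3 (adjusted p = 0.0333), since all groups share 1 estimate of the spread. Mup9, Mup15, Mup17 and Mup18 kept their calls in each of these runs. The count of calls was 4 of 9 without old control replicate 4 and 5 of 9 without both libraries that stood furthest from their groups.

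In mice that received MANF, all 9 genes were called lower in old than in young animals, against 0.721% of all tested genes called lower and 5.85% called higher. With libraries scaled to their median ratio, the calls over all genes turned from 77 lower and 625 higher to 168 lower and 157 higher, and all 9 genes were still called lower. The median log2 difference of the 9 was -3.61 and that of all tested genes 0.184. The log2 difference was -5.92 for Mup15 (standard error 0.72, limma adjusted p = 0.000542), -5.74 for Mup17 (0.67, adjusted p = 0.000388), -4.80 for Mup7 (0.76, adjusted p = 0.00389) and -4.48 for Mup11 (0.81, adjusted p = 0.00858). Young over old, the ratio of mean RPKM was 52.7 for Mup17, 51.8 for Mup15, 16.5 for Mup7 and 16.2 for Mup1. For the remaining genes the log2 difference was -3.61 for Mup1, -3.45 for Mup18, -3.22 for Mup16, -2.63 for Mup8 and -2.59 for Mup9. Their limma adjusted p ran from 0.00116 to 0.0116. The old and young MANF libraries did not overlap for any of the 9, as for 1.36% of all tested genes with old below young, and 21% of all tested genes had a difference below 0. All 9 remained called with each single library left out.

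**Figure D3:**
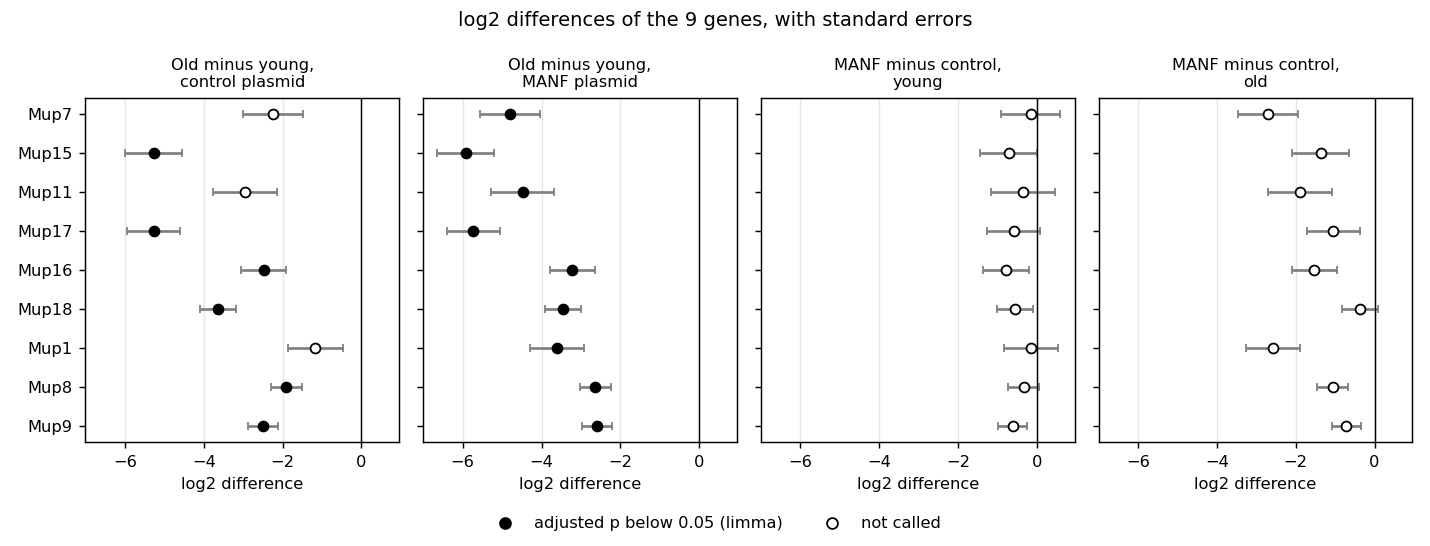
log2 difference of each gene in 4 comparisons (points) with its standard error (bars) from the limma fit. Filled points passed an adjusted p below 0.05: 6 of 9 for age in control mice, 9 of 9 for age in MANF mice, and 0 of 9 for MANF against control at either age.

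The comparison of MANF with control plasmid asks whether the human protein altered these genes at a given age. In young mice none of the 9 was called, as was true of nearly all genes (0.0187% called in either direction). The log2 differences ran from -0.79 (Mup16) to -0.15 (Mup1), with limma adjusted p of 0.42 to 0.927, and 0 of the 9 had an unadjusted p below 0.05. All 9 were below 0, as were 67.9% of all tested genes, and the groups overlapped for each of the 9 (6.59% of all tested genes lay lower with MANF without overlap). Young MANF replicate 2 was the lowest of its group for all 9 genes.

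In old mice none of the 9 was called either (0.103% of all tested genes were called), while 5 had an unadjusted p below 0.05, as did 9.7% of all tested genes. Mup7 was lower with MANF by a log2 of -2.71 (standard error 0.76, unadjusted p = 0.00268, limma adjusted p = 0.163), with means of 299 ± 228 and 63.8 ± 61.8 RPKM. For Mup1 the difference was -2.58 (standard error 0.69, unadjusted p = 0.00188, limma adjusted p = 0.147), with means of 11.6 ± 10.3 and 1.18 ± 1.15 RPKM. The remaining 7 ranged from -1.89 (Mup11) to -0.37 (Mup18), with limma adjusted p of 0.349 to 0.901. All 9 differences were below 0, as were 40.9% of all tested genes, and old control and old MANF libraries overlapped for all 9 (1.84% of all tested genes lay lower with MANF without overlap). For Mup1, the 2 groups overlapped through old control replicate 4 (1.74 RPKM). Without that library Mup1 was called (log2 difference -3.22, limma adjusted p = 0.0275), and the number of all genes called in this comparison changed more than 1.5 times with single libraries left out, from 11 to between 2 and 146.

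The comparisons with MANF share their control libraries with the comparison of age, so the values stand side by side without a test of one against the other. The difference between the ages in the response to MANF was tested as an interaction, and 0 of the 9 genes and 0 of the 10677 tested genes were called by limma (894 genes had an unadjusted p below 0.05, 2 of them among the 9). These 2 were Mup1 at -2.44 (unadjusted p = 0.0244, adjusted p = 0.594) and Mup7 at -2.55 (unadjusted p = 0.031, adjusted p = 0.594). For the other 7 the adjusted p was 0.658 or higher. The interaction was below 0 for 8 of the 9, as for 28.5% of all tested genes.

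Within each group the genes were high or low together from mouse to mouse. Young control replicate 1 was highest of its group for all 9 genes, old control replicate 4 and old MANF replicate 2 were lowest of theirs for all 9, and old MANF replicate 3 was highest for all 9. Old control replicate 2 was highest for 8 of the 9 and old control replicate 3 for the other. After subtraction of the group means (log2(RPKM + 0.5)), the 36 pairs of genes had Pearson r from 0.631 to 0.983 with a median of 0.859 over the 16 libraries, and Spearman rho from 0.756 to 0.977. The highest r was that of Mup15 with Mup17 and the lowest that of Mup7 with Mup9. Without the 2 libraries with the largest mean deviation, old control replicate 4 and old MANF replicate 3, the range was 0.609 to 0.968. No p is given, since the genes share sequence and may share reads, as the coding window above shows.

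**Figure D4:**
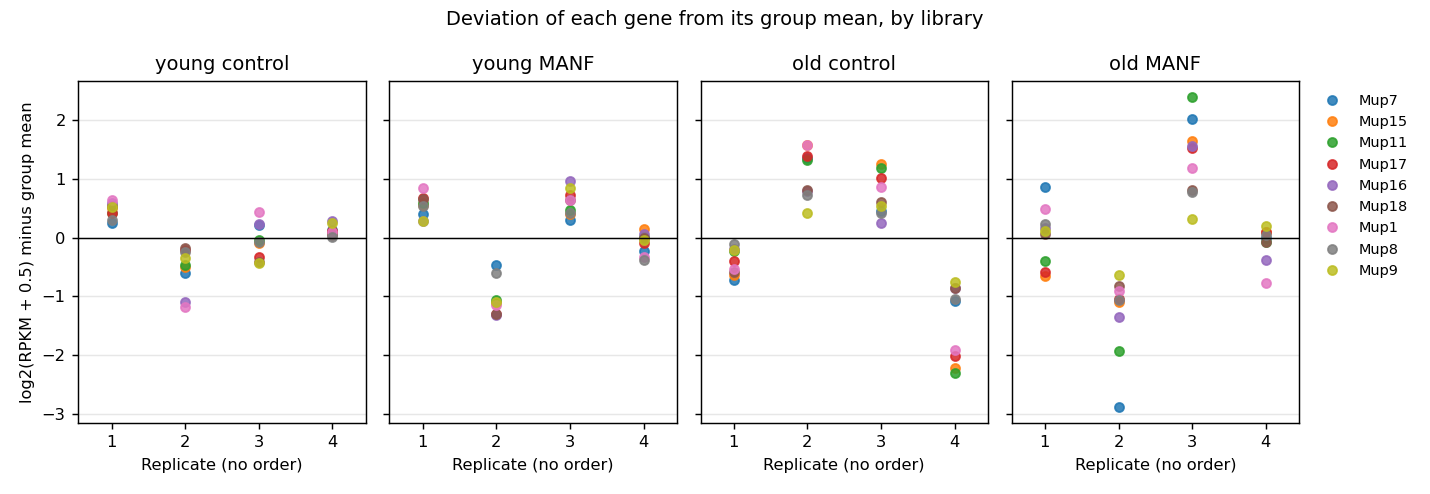
Deviation of each gene from its group mean in each library, on the log2(RPKM + 0.5) scale, 1 panel per group and 1 colour per gene (replicate numbers carry no order). The genes of a library lie on the same side of 0 in most libraries, for example below 0 in young MANF replicate 2, old control replicate 4 and old MANF replicate 2 and above 0 in old MANF replicate 3.

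Among the 10658 tested genes that are not Mup genes, the 5 whose deviations were most like the mean deviation of the 9 were Cela1, a chymotrypsin-like elastase (r = 0.927, rho = 0.95 over 16 libraries), Hsd3b5, a male-biased steroid dehydrogenase (r = 0.877, rho = 0.806), Slc16a13, a monocarboxylate transporter (r = 0.84, rho = 0.921), Notum, a lipase that inactivates Wnt proteins (r = 0.839, rho = 0.809), and Gpd1, glycerol-3-phosphate dehydrogenase (r = 0.834, rho = 0.844). Without old control replicate 4 and old MANF replicate 3, r was 0.916 for Cela1, 0.783 for Hsd3b5, 0.807 for Slc16a13, 0.769 for Notum and 0.719 for Gpd1. These genes were picked for their likeness within groups and carry no p. The likeness says nothing of the group means, which it does not use. Cela1 was at 8.15 ± 2.16 RPKM (control plasmid) and 13.3 ± 4.12 (MANF) in young mice, and at 9.90 ± 3.75 and 10.1 ± 5.90 in old mice. Hsd3b5 was at 51.9 ± 21.7 and 109 ± 20.8 RPKM in the young groups against 19.1 ± 14.8 and 17.7 ± 20.6 in the old.

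Of the other Mup genes the table held 12, of which 10 were tested, and 2 were called lower in old control mice, Mup2 (log2 difference -1.42, limma adjusted p = 0.031) and Mup10 (-0.63, adjusted p = 0.0435). In old mice Mup10 reached at most 0.448 RPKM with the control plasmid and 0.396 with MANF. It passed the filter on low values only through young libraries, so its calls for age are no independent support. All 10 differences were below 0, with a median of -0.81, while 37.8% of all tested genes were below 0. The differences of Mup14 (-1.85, adjusted p = 0.0664), Mup19 (-1.67, adjusted p = 0.0551) and Mup13 (-1.67, adjusted p = 0.0703) were near that of Mup8. In MANF mice 8 of the 10 were called lower, with a median of -1.55, among them Mup14 (-2.86, limma adjusted p = 0.00458), Mup12 (-2.83, adjusted p = 0.0256) and Mup19 (-2.29, adjusted p = 0.00751). Over all tested genes, 0.347% were called lower for age in control mice and 0.721% in MANF mice. The ranges of the log2 differences of these 10 Mup genes and of the 9 overlapped. The most abundant were Mup3, at 5136 ± 642 RPKM in young and 3660 ± 788 in old control mice (limma adjusted p = 0.289), and Mup20, which codes for the male pheromone darcin, at 4926 ± 1385 and 2874 ± 417 (adjusted p = 0.059). None of the 10 was called for MANF against control at either age. No test compared these genes with the 9 as a set.

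Genes of the pathway that drives Mup transcription were mostly not called for age. Of 25 genes listed for growth hormone signalling and Mup regulation 23 were tested, and 0 were called lower in old control mice. Of all tested genes 0.347% were called lower there, so a count of 0 among 23 says little. In MANF mice Stat5b was called higher in old mice (log2 difference 0.43, limma adjusted p = 0.0497) and Igfals, which codes for the acid-labile subunit that binds circulating insulin-like growth factor, was called lower (-0.66, adjusted p = 0.0195). In MANF mice 5.85% of all tested genes were called higher for age and 0.721% lower. The median log2 difference of the 23 was 0.059 in control and 0.135 in MANF mice, and that of all tested genes 0.054 and 0.184. Ghr was at a log2 difference of 0.028 (adjusted p = 0.953) and Igf1 at -0.23 (adjusted p = 0.414) in control mice. None of the 23 was called for MANF against control, where 0.0187% of all tested genes were called in young and 0.103% in old mice.

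Many sex-biased liver genes respond to the same hormone. Of 18 tested male-biased genes other than Mup, 5 were called lower in old control mice and 14 in old MANF mice, 0 higher in both, with medians of -0.71 and -1.09 (0.347% and 0.721% of all tested genes were called lower). Among them were Ugt2b37 (log2 difference -2.77, limma adjusted p = 2.35e-05) and Ugt2b38 (-2.56, adjusted p = 0.00147), which code for glucuronosyltransferases, and Gstp1, a glutathione transferase (-1.12, adjusted p = 0.00214). Ugt2b37 was also the only 1 of the 18 called for MANF in young mice, at -1.96 (adjusted p = 0.00127). The 5 and the 14 genes called lower for age include Moxd1. In old mice Moxd1 reached at most 0.075 RPKM with the control plasmid and 0.0512 with MANF. It passed the filter on low values only through young libraries, so its calls are no independent support for a lower level in old mice. Of 26 listed female-biased genes 14 were tested, and 0 were called in old control mice. There, 9 of the 14 had an unadjusted p below 0.05, as did 14.9% of all tested genes. In old MANF mice 5 of the 14 were called higher, against 5.85% of all tested genes. These 5 were led by the cytochrome P450 gene Cyp2a4 (3.05, adjusted p = 0.00349). The medians of the 14 were 0.51 in control and 1.15 in MANF mice. For Cyp2a4 the level was 0.173 ± 0.0438 RPKM in young and 5.83 ± 3.49 in old MANF mice. It reached at most 0.251 RPKM in young control and 0.214 in young MANF libraries. Cyp2a4 thus passed the filter on low values only through old libraries, as did Cyp2b9 and Cyp2b10, which were not called. The tested 14 are therefore in part selected for being high in old mice, and their counts are no independent support.

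Of 10 hepatocyte markers 0 were called in any of the 4 comparisons by limma. Of all tested genes, 0.347% were called lower and 0.899% higher for age in control mice, and 0.721% and 5.85% in MANF mice. For MANF 0.0187% were called in young and 0.103% in old mice. An unadjusted p below 0.05 was found for 1 marker for age in control mice, 2 for age in MANF mice, 3 for MANF in young mice and 2 in old mice. Of all tested genes it was 14.9%, 33.4%, 14.9% and 9.7% in the same order. The median log2 differences of the 10 markers for age were 0.027 in control and -0.031 in MANF mice. Their summed level was 30900 to 35540 RPKM (control plasmid) and 36220 to 42060 (MANF) in young libraries, and 32170 to 45450 and 40960 to 48080 in old ones. Markers of other cell types were in part called higher in old mice, and in a bulk sample fewer cells of a type and less RNA per cell cannot be told apart. The 8 Kupffer cell markers were all above 0 for age, with medians of 1.23 in control and 1.33 in MANF mice and 0 called. In each, 6 had an unadjusted p below 0.05, as did 14.9% of all tested genes for age in control mice and 33.4% in MANF mice. Their summed level was 55.4 to 153 RPKM (control plasmid) and 33.7 to 121 (MANF) in young libraries, and 113 to 613 and 132 to 259 in old ones.

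Of the 6 markers of sinusoidal endothelium 3 were called higher for age in control mice and 0 in MANF mice, and of the 6 stellate cell markers 0 and 4. Among 4 tested T and NK cell markers the counts were 2 and 3, and 0 of 3 tested B cell markers and 0 of 3 tested bile duct markers were called. Of the T and NK cell markers, Cd8a reached at most 0.419 RPKM in young control and 0.0568 in young MANF libraries. It passed the filter on low values only through old libraries, so its result is no independent support for a higher level in old mice. Over all tested genes, 0.899% were called higher for age in control mice and 5.85% in MANF mice. The summed level of the endothelial markers was 14.2 to 19.4, 15.6 to 30.4, 29.97 to 42.8 and 19.98 to 49.4 RPKM, for young mice with the control and the MANF plasmid and then for old mice likewise. In the same order it was 80.0 to 136, 79.0 to 99.96, 92.4 to 120 and 141 to 168 RPKM for stellate cells, and 0.489 to 3.08, 0.504 to 0.878, 2.70 to 10.4 and 2.63 to 3.96 RPKM for T and NK cells. No marker of these lists that the table holds was at 0 in every library. Old control replicate 4, the library lowest for all 9 Mup genes in its group, had the highest Kupffer sum (613 RPKM, against 113 to 171 in the other old control libraries) and a hepatocyte sum of 32170 RPKM against 42010 to 45450. Their part in the differences of the 9 genes was not tested, other than by leaving that library out.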

How the data were processed

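Per the labels' protocols, flash frozen liver was extracted with Trizol, and the library kit was TruSeq Stranded mRNA LT. Tools named in the submitters' processing notes are HTSeq and STAR 2.4.2a, with the mm10 build, and how these were combined is not given in the sources used here. The authors deposited 1 table of RPKM values for 24010 entries in 16 libraries. From the spacing of the values, whole reads were recovered for all 17346 entries above 0 (100%, within 0.001 reads, widened to at most 0.2 for genes with many reads). The values had been divided by 18.31 to 26.12 M reads (megareads) per library.

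A gene was tested if 4 or more of the 16 libraries had 0.5 RPKM or more (10677 genes, 13333 left out), with limma 3.58.1 in R 4.3.3 on log2(RPKM + 0.5), with a mean per group, 1 spread shared by all groups and an intensity trend. The 5 contrasts were age in control mice, age in MANF mice, MANF in young mice, MANF in old mice, and the interaction. Adjustment was by Benjamini-Hochberg over all genes tested in a contrast. Data were simulated with the groups and levels of the age comparison in control mice (10677 genes). There, 89.6% of genes lowered by a log2 of 2 and 16.3% of those lowered by 1 were recovered. Recovery at the standard errors of Mup1, Mup7, Mup11, Mup15 and Mup17 (0.67 to 0.81) was not tested separately. Of these, Mup7 at -2.25 and Mup11 at -2.95 were not called.

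All 9 Mup genes were named whether called or not. From each list, up to 4 tested genes with the smallest unadjusted p for age could be named, and the 5 genes most like the 9 in their deviations. The rule does not cover Ghr, Igf1, Mup3, Mup20, Mup12, Mup13, Moxd1, Cyp2b9, Cyp2b10, Ddx3y and Xist. These were chosen after their values were seen. The result of 1 gene of the lists is not reported here. The genes and lists were chosen with earlier results of these data known. Alternatives were pseudocounts of 0.1 and 1, a filter at 1 RPKM or none, scaling by the median ratio, a library total without Mup genes, a fit of only the groups compared, the replicate number as a block, limma's voom on the recovered reads, and each library left out. Sequences came from GENCODE M21 transcripts (GRCm38) and the RefSeq promoter table (GRCm38.p6).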

Additional observations from a re-analysis of the deposited data

Results flagged for a closer look

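Among the 36 sets of 4 libraries (9 genes in 4 groups), 2 held a library far from the other 3 of its group by Dixon's criterion, and chance flags about 1 in 20 such sets. Mup7 was at 754 RPKM in young control replicate 2, with the other 3 young control libraries between 1252 and 1353 RPKM. Mup11 was at 72.8 RPKM in old MANF replicate 3, with the other 3 old MANF libraries between 3.14 and 12.6 RPKM.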

How the results depend on the processing

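Of 1161 values of the 9 genes recomputed under the alternatives, 1121 kept their direction and side of the threshold, 22 were no longer called (all of Mup8 or Mup16 for age in control mice), 4 were newly called and 14 changed sign. The number of the 9 called lower was 4 to 7 for age in control mice, 9 throughout for age in MANF mice, and 0 for MANF in young mice and for the interaction. For MANF in old mice it was 0, except 1 (Mup1) without old control replicate 4 and 1 without young MANF replicate 3 and old control replicate 4, an alternative chosen after seeing the data. Values that changed sign were those of Mup1 for MANF in young mice (-0.54 to 0.24 with a library left out) and, for the interaction, Mup9 (0.034 with a pseudocount of 1, and -0.47 to 0.18 with a library left out), Mup17 (-1.13 to 0.0028) and Mup18 (-0.24 to 0.47).

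The counts over all genes moved more. For age in control mice 133 genes were called, 85 with the replicate block, 229 without both libraries that stood apart, and 37 to 211 with a library left out. For age in MANF mice 702 were called, 325 with median scaling, 1072 in a fit of only the groups compared, 459 with the replicate block, 1406 without both libraries, and 216 to 1810 with a library left out. MANF in young mice gave 2, 5 in a fit of only its groups, and 2 to 5 with a library left out. MANF in old mice gave 11, 3 with a pseudocount of 0.1, 3 with no filter, 6 in a fit of only its groups, 6 with the replicate block, 362 without both libraries, and 2 to 146 with a library left out. The interaction gave 0, 1 without both libraries, and 0 to 2 with a library left out. The cause of these shifts was not tested. Median scaling turned the split for age in MANF mice from 625 higher and 77 lower to 157 and 168, and in control mice from 96 and 37 to 74 and 50. It moved the median of all genes for age in MANF mice from 0.18 to 0.04, and that of the 9 from -3.61 to -3.75. Voom on the recovered reads called 127, 744, 2, 11 and 0 genes in the 5 contrasts, with 6, 9, 0, 0 and 0 of the 9.

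Deviations of same-numbered libraries had r of -0.319 to 0.21 (24 pairs, 5 of them above 0.1). The labels do not say what the numbers mark, so whether they pair the mice is not known. The replicate block changed no call of the 9 genes. The log2 ratio of the mean summed level was -2.76 for age in control mice and -3.32 to -2.46 with a library left out. Counting error is largest for Mup1 and Mup9, with as few as 8 and 7 reads in old MANF replicate 2.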
